A study of Rattus norvegicus with 30 samples.

Results

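Oligodendrocyte precursor cells are the dividing glial cells that give rise to myelinating oligodendrocytes. They are recognised by the PDGF receptor alpha, through which they receive their main signal to divide, and by the NG2 proteoglycan, the product of Cspg4. Their identity is kept by the transcription factors Olig1, Olig2, Sox10 and Nkx2-2, and Gpr17 marks the cells that have begun to differentiate. A set of 9 such genes, called the precursor genes here, was followed by their gene symbols in rat hippocampal cultures: the surface receptors and proteoglycan Pdgfra, Erbb3, Gpr17 and Cspg4, the transcription factors Olig1, Olig2, Sox10 and Nkx2-2, and the matrix gene Bcan. They are 9 of the 21993 genes listed. They were taken by symbol, by a rule that holds no measured value, but the set was chosen with earlier results of these data known.

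The RNA came from primary hippocampal neurons of Wistar rats taken on embryonic day 18 and grown for 7 days. The cultures received 30 µM dimethyl fumarate (DMF) or 30 µM monomethyl fumarate (MMF), with dimethyl sulfoxide (DMSO) as vehicle, or 6 µM cannabidiol (CBD), with ethanol (EtOH) as vehicle, and the vehicle was at 0.2% throughout. DMF is the ester of fumaric acid with both acid groups methylated, MMF carries a single methyl ester, and CBD is a plant cannabinoid. RNA was taken after 4 and 24 h, which gives 10 groups of 3 libraries, each group holding replicate numbers 1, 2 and 3 from independent experiments. No untreated group without vehicle was analysed here, and no strain or genetic change separated the groups.

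The libraries held 15108132 to 25367834 reads on genes, with a median of 20088658. Of all 30 libraries, replicate 3 of CBD at 24 h had the lowest sum of the 9 precursor genes, 737 CPM (counts of a gene relative to the total of its library after TMM scaling, which sets all 30 libraries on a common scale). The cultures were not made of neurons alone. Over all libraries the neuronal gene Map2 had a median of 1051 CPM and the astrocyte gene Gfap 1456. Transcripts of mature oligodendrocytes were close to absent: Opalin was at 0 in 18 of the 30 libraries and never above 0.143 CPM, and Mog, a protein of the myelin surface, did not pass 0.737. All 9 precursor genes had reads in every library. Erbb3 rested on 16 to 101 reads a library (0.832 to 5.06 CPM) and Nkx2-2 on 23 to 139 (1.06 to 7.90 CPM), so their ratios carry more counting error than those of the other genes. Levels are not compared between genes here, because no transcript lengths were at hand.

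All genes are given on the rat assembly mRatBN7.2 and are protein-coding. Cspg4 (ENSRNOG00000017208) lies at chr8:57264962-57300010, Pdgfra (ENSRNOG00000002244) at chr14:33005839-33054335 and Erbb3 (ENSRNOG00000004964) at chr7:996225-1015525. Gpr17 (ENSRNOG00000065480) lies at chr18:23577242-23582966 and Sox10 (ENSRNOG00000011305) at chr7:110725274-110735544. Olig2 (ENSRNOG00000028658, chr11:30475398-30480152) and Olig1 (ENSRNOG00000028648, chr11:30514379-30516521) are neighbours on chromosome 11. Nkx2-2 (ENSRNOG00000012728) lies at chr3:134620039-134622411 and Bcan (ENSRNOG00000018798) at chr2:173454482-173467460. Of the 9 loci, 2 overlap another gene. Odf3l1, which overlaps Cspg4, had 0 to 7 reads a library, and Lims2, which overlaps Gpr17, had 1 to 16, so few reads were assigned to either partner.

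The 4 surface genes and Sox10 were lower with DMF at 24 h, while Olig1, Olig2, Nkx2-2 and Bcan had no call. At 24 h, 5 of the 9 precursor genes were lower in DMF than in DMSO and none was higher at an adjusted p under 0.05 (limma on log2 normalized counts, Benjamini-Hochberg over all genes). Over all 13967 genes tested, 2.09% were called lower. The median log2 fold change was -1.13 over the 9 genes and -0.01 over all genes tested. A normalized count is the number of reads on a gene divided by the size factor of its library. In bulk RNA, fewer cells of a type and less RNA per cell cannot be told apart.

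Pdgfra encodes the receptor for PDGF-AA. It had 2414, 1887 and 1658 normalized counts in the DMSO libraries at 24 h and 803, 557 and 656 in the DMF libraries. Every DMF library lay below every DMSO library. The log2 fold change was -1.56 ± 0.16 (SE, n = 3 per group), which is 2.95-fold lower (adjusted p = 0.00137, limma).

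Cspg4 encodes the NG2 core protein. It had 1060.3, 926 and 942 normalized counts in DMSO and 436, 425 and 470.4 in DMF at 24 h. The groups were far apart relative to their spread, with a standard deviation of 73.3 in DMSO and 23.8 in DMF. It had the smallest standard error of the 9 genes, 0.08 on the log2 scale, around a log2 fold change of -1.13 (adjusted p = 0.000574, limma).

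Erbb3 encodes a neuregulin receptor that lacks strong kinase activity of its own and signals with Erbb2. Its normalized counts were 93.7, 72.5 and 69.6 in DMSO and 23.6, 17.4 and 21.2 in DMF at 24 h. The groups did not overlap. It fell 3.66-fold (log2 fold change -1.87 ± 0.22, SE, n = 3 per group, adjusted p = 0.00281, limma).

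Gpr17 encodes an orphan G protein-coupled receptor of committed precursors. It had 706, 556 and 220.0 normalized counts in DMSO and 153, 124 and 91.8 in DMF at 24 h. The groups did not overlap, but replicate 3 was far below replicates 1 and 2 in DMSO. The log2 fold change was -1.87 ± 0.38 (SE, n = 3 per group, adjusted p = 0.0319, limma). This call was lost in 4 of the 6 fits that left out a single library, where the adjusted p reached 0.132, and also when the spread was taken from all 30 libraries (adjusted p = 0.128, limma).

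Sox10 is the transcription factor that activates myelin genes in this lineage. Its normalized counts were 748, 625 and 485 in DMSO and 281, 211 and 227 in DMF at 24 h, again without overlap. It was 2.56-fold lower (log2 fold change -1.36 ± 0.17, SE, n = 3 per group, adjusted p = 0.00331, limma). The calls of Pdgfra, Cspg4, Erbb3 and Sox10 were kept when any one of the 6 libraries was left out, with adjusted p of at most 0.0282 (limma). The 5 called genes were the 5 whose DMF libraries all lay below the DMSO libraries. Over all genes tested, 11.5% had such a gap downward.

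Nkx2-2 is a homeodomain factor involved in oligodendrocyte differentiation. Its normalized counts were 107, 93.9 and 52.2 in DMSO and 25.6, 54.3 and 44.8 in DMF at 24 h. The groups overlapped, since the third DMSO library fell inside the DMF range, and the adjusted p was 0.160 (limma) for a log2 fold change of -1.0 ± 0.34 (SE, n = 3 per group). A fit blocked by replicate number gave an adjusted p of 0.0506 (limma), DESeq2 0.0556 and edgeR 0.139, so it came near the threshold without passing it.

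Olig1 and Olig2 are the basic helix-loop-helix factors that specify the lineage. Olig1 had 9354, 9087 and 7991 normalized counts in DMSO and 7221, 9904 and 9715 in DMF at 24 h. The groups overlapped, and the 95% confidence interval of its log2 fold change ran from -0.27 to 0.29. Olig2 had 2313, 2213 and 2078 in DMSO and 1459, 1945 and 2129 in DMF, with an interval from -0.56 to 0.01. Bcan encodes brevican, a proteoglycan of the neural matrix that astrocytes also make. Its interval ran from -0.58 to 0.18, around a log2 fold change of -0.20. All of these intervals lie above the fold change of each of the 5 genes that fell. When the fit was blocked by replicate number, Bcan was called lower as well (adjusted p = 0.0457, limma).

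At 4 h the same comparison gave a smaller set. One precursor gene, Erbb3, was called lower in DMF, where 1.55% of the 14208 genes tested were called lower. Its normalized counts were 84.0, 66.6 and 44.4 in DMSO and 18.2, 23.5 and 16.7 in DMF. The groups did not overlap, as was so in the downward direction for 13.3% of all genes, and the log2 fold change was -1.66 ± 0.29 (SE, n = 3 per group, adjusted p = 0.0285, limma). The call was lost in 5 of 6 fits that left out a library, with adjusted p up to 0.0900.

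At 4 h the calls depended on whether libraries were paired by replicate number, with that number as a block in the fit. Pdgfra had 1601, 1797 and 903 normalized counts in DMSO replicates 1, 2 and 3 and 1139, 1115 and 538 in the DMF libraries of the same numbers. The groups overlapped, yet each DMF library was below its own vehicle, by log2 ratios of -0.49, -0.69 and -0.75. Without the block the adjusted p was 0.331, and with it 9.93e-06 (limma). Sox10, Gpr17 and Nkx2-2 were also lower in each of the 3 pairs at 4 h, and the block gave adjusted p of 0.00141, 0.00413 and 0.00587 (limma) against 0.332, 0.673 and 0.284 without it. How many of all genes were lower in each of the 3 pairs was not counted. With the block, 5 of the 9 genes were called lower at 4 h and 6 at 24 h. The block also raised the calls over all genes, to 23% of the genes tested at 4 h (3274, against 485 without it) and 12.9% at 24 h (1803, against 554).

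Cspg4 was close to its vehicle at 4 h. It had 944, 765 and 664 normalized counts in DMSO and 827, 875 and 657 in DMF, with pair ratios of -0.19, 0.19 and -0.02 on the log2 scale. Its confidence interval at 4 h was -0.35 to 0.34. The DMF effect at 24 h minus that at 4 h was -1.13 ± 0.19 on the log2 scale (SE, adjusted p = 0.00578, limma interaction). This was the only one of the 9 genes with a called difference between the times, against 2.33% of all genes called in that direction. For Erbb3 the difference between times was -0.22, with an interval of -1.01 to 0.56. With the block, Pdgfra (adjusted p = 0.0252), Sox10 (0.0147) and Gpr17 (0.00676) were called too (limma), all with a lower ratio at 24 h, against 13.2% of all genes in either direction.

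**Figure D1:**
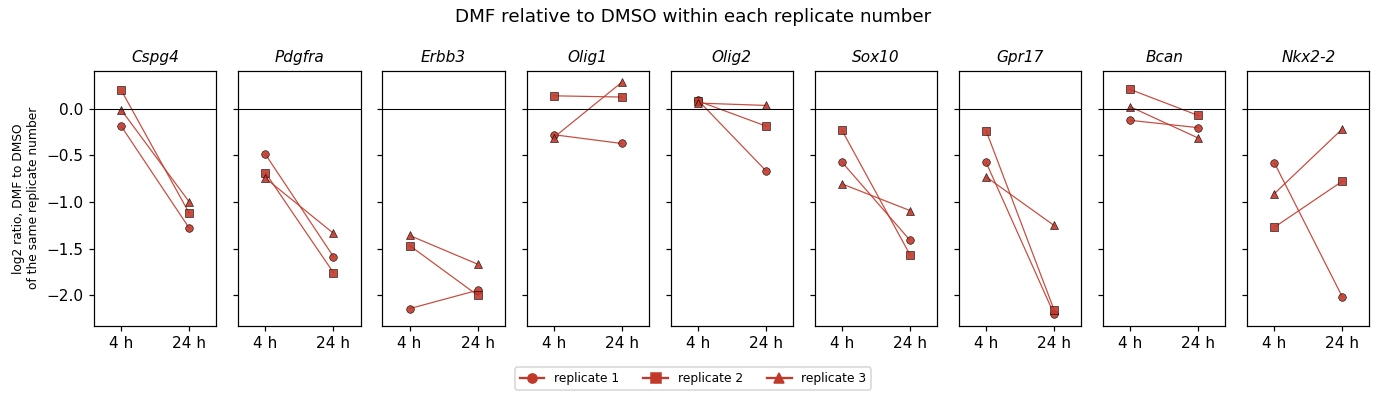
Log2 ratio of DMF to DMSO (vertical axis) at 4 and 24 h (horizontal axis) for each of the 9 genes, one line per replicate number. Cspg4 lies near 0 at 4 h and between -1.28 and -1.0 at 24 h, Erbb3 is at -1.36 or lower at both times, and Olig1 lies on both sides of 0.

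Levels over the 10 groups are given in CPM. Cspg4 ranged from 24.0 ± 1.34 (mean ± SD, n = 3) in DMF at 24 h to 52.9 ± 3.76 in DMSO at 24 h. The DMF group at 24 h did not overlap the next group in order, MMF at 4 h with 39.3 ± 5.70, whereas the ranges of all later neighbours overlapped. Pdgfra was lowest in DMF at 24 h (36.4 ± 6.74), followed by DMF at 4 h (46.5 ± 17.1), and these overlapped. The next was CBD at 4 h with 68.0 ± 5.22, whose libraries all lay above those of DMF at 4 h. The highest was DMSO at 24 h with 108 ± 20.6.

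Erbb3 was lowest in DMF at 4 h (0.973 ± 0.179) and then in DMF at 24 h (1.12 ± 0.171). Both lay below MMF at 4 h, the third in order, with 2.37 ± 0.701. Sox10 and Gpr17 were lowest in DMF at 24 h, with 13.0 ± 1.99 and 6.65 ± 1.65. Nkx2-2 was lowest in DMF at 4 h (2.00 ± 0.873) with DMF at 24 h next (2.25 ± 0.789). For Sox10, Gpr17 and Nkx2-2 all neighbouring groups overlapped. Neighbouring groups also overlapped for Olig1, Olig2 and Bcan, whose lowest groups were DMF at 4 h, MMF at 4 h and CBD at 24 h.

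**Figure D2:**
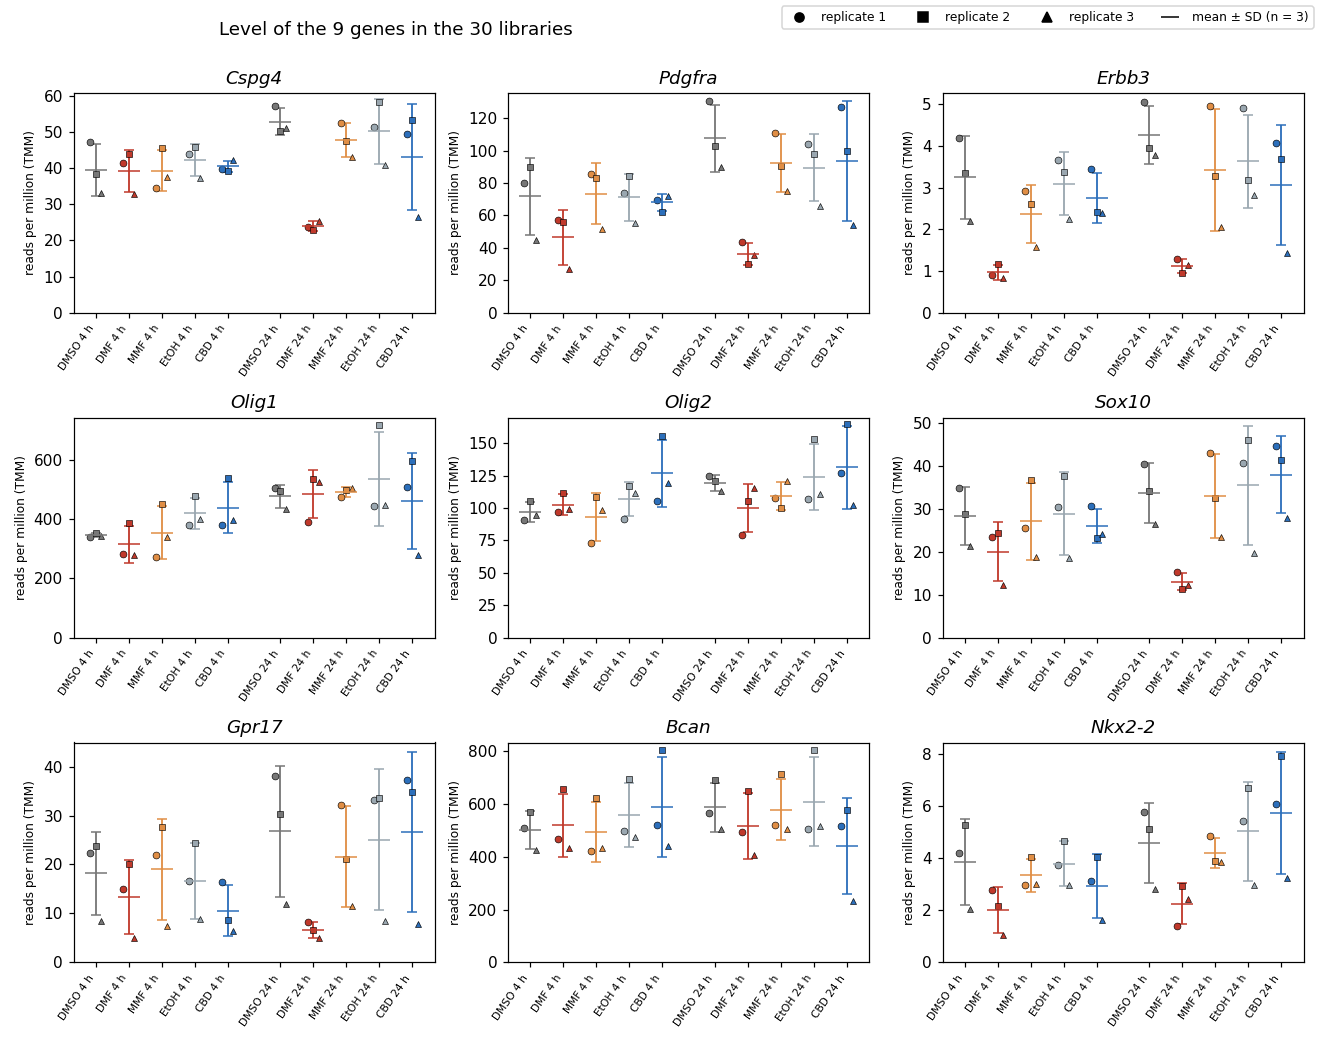
CPM after TMM scaling (vertical axes, from 0) in the 10 groups (horizontal axes) for each of the 9 genes; symbols are libraries by replicate number and bars are the mean ± SD of 3. Cspg4 is at 24.0 ± 1.34 in DMF at 24 h against 52.9 ± 3.76 in its vehicle, while the Olig1, Olig2 and Bcan groups overlap.

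The 3 replicate numbers differed in most of these genes over the treatments. Cspg4 had no steady order, with replicate 3 lowest in 6 of 10 groups and replicate 2 highest in 5. Gpr17 was lowest in replicate 3 in 10 of 10 groups, Erbb3 in 9, and Pdgfra, Sox10, Bcan and Nkx2-2 in 8 each. In DMSO at 24 h, Gpr17 ran from 11.9 CPM in replicate 3 to 38.1 in replicate 1. Olig1 and Olig2 had another pattern, with replicate 1 the lowest in 7 of 10 groups and replicate 2 the highest in 8 and 7. Bcan was highest in replicate 2 in 10 of 10 groups.

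No precursor gene was called with MMF at the same dose, and none had an unadjusted p under 0.05 at either time. At 4 h limma called 0 of 14032 genes (0%; edgeR and DESeq2 also 0, and 36 genes at an unadjusted p under 0.05). At 24 h 1 of 14137 genes was called (0.00707%). The confidence intervals of MMF against DMSO at 24 h were narrow for some genes: Cspg4 lay between -0.35 and 0.04 and Pdgfra between -0.59 and 0.14 on the log2 scale. Of the 9 genes, 4 were lower than their own vehicle in all 3 pairs at 24 h (Cspg4, Pdgfra, Erbb3 and Gpr17) and none was higher in all 3. The share of all genes lower in all 3 pairs was not counted, so this count is a description only. The log2 ratios of Pdgfra were -0.25, -0.17 and -0.26, and it alone was called with the block (log2 fold change -0.23, adjusted p = 0.0175, limma), as were 1.38% of all genes.

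DMF and MMF were compared directly at 30 µM, 1 pair of compounds at both times. At 24 h the same 5 genes were lower in DMF (Cspg4, Pdgfra, Erbb3, Sox10 and Gpr17), where 2.12% of 14233 genes were called lower. The DMF libraries are shared with the comparison against DMSO, so these calls are not independent of those. Cspg4 had 1072, 969 and 877 normalized counts in MMF and 481, 469.6 and 519 in DMF, a log2 fold change of -0.98 ± 0.09 (SE, n = 3 per group, adjusted p = 0.000987, limma). For Pdgfra the counts were 2258, 1847 and 1527 in MMF and 888, 616 and 724 in DMF, a log2 fold change of -1.33 ± 0.16 (adjusted p = 0.00358, limma). Both genes kept the call in all 6 fits without a library. Sox10 (log2 fold change -1.30, adjusted p = 0.0134) lost it in 2 of them, and Erbb3 (-1.49, adjusted p = 0.0445) and Gpr17 (-1.60, adjusted p = 0.0411) in 5 each (limma). For Nkx2-2 the groups did not overlap (28.3, 60.0 and 49.4 in DMF against 99.3, 79.2 and 78.3 in MMF). Its adjusted p was 0.122 without the block and 0.0404 with it (limma), where 12.2% of all genes were called. Over all genes, 11.1% had no overlap downward.

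The intervals of DMF against MMF at 24 h were -0.30 to 0.23 for Olig1, -0.45 to 0.17 for Olig2 and -0.58 to 0.25 for Bcan. At 4 h no precursor gene was called between DMF and MMF (1.61% of 14200 genes in either direction), though 3 had an unadjusted p under 0.05. Erbb3 was the nearest, with a log2 fold change of -1.21 ± 0.30 (SE, n = 3 per group, adjusted p = 0.0867, limma). With the block, 5 genes were called lower at 4 h: Pdgfra (adjusted p = 4.80e-06), Gpr17 (0.000897), Erbb3 (0.00231), Sox10 (0.00310) and Nkx2-2 (0.0184) (limma), against 23.6% of all genes in either direction.

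With CBD none of the 9 genes was called against EtOH or had an unadjusted p under 0.05. Of all genes, 0.00705% were called at 4 h and 0.114% at 24 h. At 24 h Cspg4 had 970.4, 1110.4 and 771 normalized counts in EtOH and 931, 1011 and 498 in CBD. The CBD libraries were spread widely, with replicate 3 the lowest, and its interval ran from -0.87 to 0.32. Bcan showed the same low library, with 9712, 10896 and 4422 in CBD against 9566, 15271 and 9807 in EtOH. Whatever library was left out, no precursor gene was called. At 4 h the block called Olig2 higher (log2 fold change 0.24, adjusted p = 0.0263) and Gpr17 lower (-0.65, adjusted p = 0.0491) in CBD (limma), against 2.33% of all genes.

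Doses of DMF and CBD were different, so their effects stand side by side and the test of the difference describes these 2 doses only. At 24 h the log2 fold change of Pdgfra was -1.56 for DMF and 0.00 for CBD, that of Sox10 -1.36 and 0.15, and that of Cspg4 -1.13 and -0.27, each against its own vehicle. No precursor gene was called in the interaction (0.391% of 14313 genes were, in either direction), and 4 had an unadjusted p under 0.05. The nearest was Pdgfra, with a difference of -1.56 ± 0.39 (SE, adjusted p = 0.129, limma). Without replicate 3 of CBD at 24 h, 3 genes were called: Cspg4 (adjusted p = 0.00875), Pdgfra (0.00875) and Erbb3 (0.0168), and the calls over all genes rose from 56 to 168. With the block 3 were called also, Pdgfra (0.00471), Sox10 (0.00829) and Gpr17 (0.0181) (limma), against 2.58% of all genes. At 4 h none was called (0.999% of 14615 genes were), and the block called Erbb3 (adjusted p = 0.00587, limma), as it did 10.4% of all genes.

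**Figure D3:**
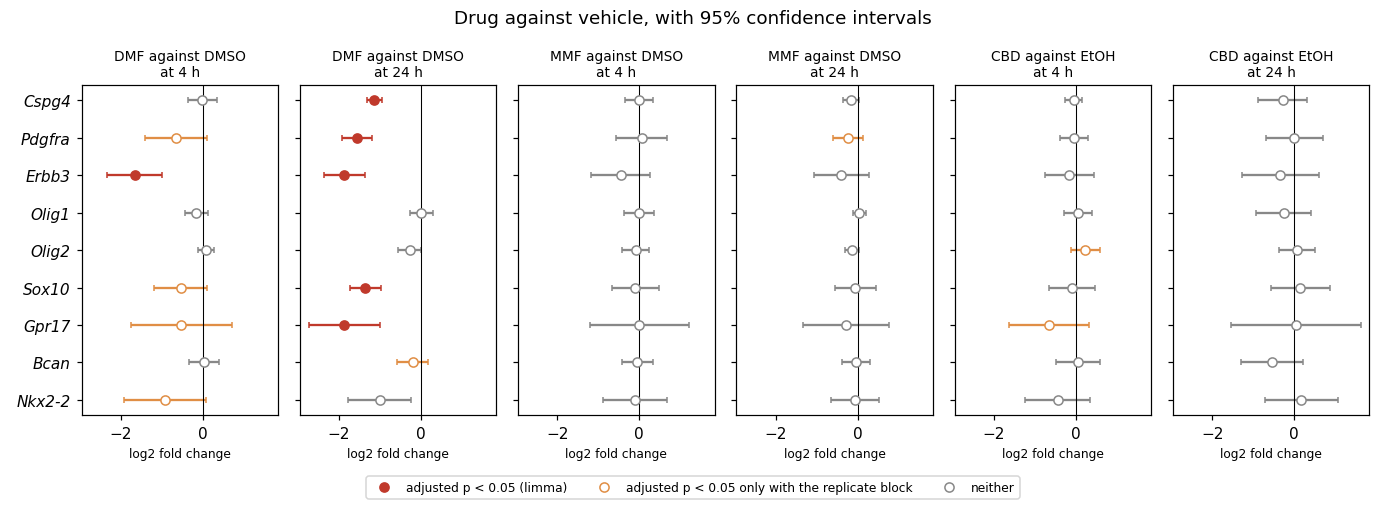
Log2 fold change with its 95% confidence interval (horizontal axes) for the 9 genes (rows) in the 6 drug-to-vehicle comparisons, n = 3 per group; intervals are from the fit without the block. Filled points, 5 in DMF at 24 h and Erbb3 in DMF at 4 h, passed an adjusted p of 0.05; open orange points passed it with the replicate block only.

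Other genes of the lineage were read from lists chosen with earlier results of these data in view. Of 20 further precursor genes, 18 were tested in DMF against DMSO at 24 h, with a median log2 fold change of -0.24. Of these, 5 were lower and none higher, where 2.09% of all genes were called lower. Matn4, a matrilin of the matrix, fell by 1.32 ± 0.19 (SE) on the log2 scale (adjusted p = 0.00673, limma). Vcan, the proteoglycan versican, fell by 0.66 (adjusted p = 0.0112), Sox8, a relative of Sox10, by 0.46 (0.0134), and Neu4, a sialidase, by 0.80 (0.0202). The fifth was Dll3, a Notch ligand, named after its values were seen. Matn4 alone of the first 4 kept its call in every fit without a library. At 4 h none of the 18 was called. With the replicate block 10 were lower and 1 higher at 24 h, where 12.9% of all genes were called in either direction, and 7 were lower and 2 higher at 4 h, where 23% were.

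Of 22 genes of differentiating and myelinating oligodendrocytes, 12 had enough reads at 24 h. Bcas1, which marks oligodendrocytes in early myelination, fell by 0.83 ± 0.14 (SE) on the log2 scale with DMF (adjusted p = 0.0141, limma). The other 11 were not called, and over all genes 2.09% were called lower. Cnp, a myelin enzyme, had a log2 fold change of -0.28 (adjusted p = 0.236, and 0.0162 with the block, limma). The sum of the 22 genes was 293 to 348 CPM in DMSO and 262 to 324 in DMF at 24 h.

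The ligands and partner receptors of the PDGF and neuregulin pathways had their own pattern. Of the 11 genes tested, 1 was called at 24 h with DMF and it was higher, as were 262 of all 13967 genes tested. This was the ligand gene Nrg1, at a log2 fold change of 0.68 ± 0.14 (SE, adjusted p = 0.0329, limma). It had 482 ± 75.0 normalized counts in DMF against 299.7 ± 43.6 in DMSO (mean ± SD, n = 3). The ligands of Pdgfra were not called, at log2 fold changes of -0.25 for Pdgfa, -0.36 for Pdgfb and 0.22 for Pdgfc. Erbb2, the partner of Erbb3, was at 0.17 and Erbb4 at -0.46 (adjusted p = 0.730 and 0.0909, limma). Egfr was at -0.12, Pdgfd at 0.16, Nrg2 at 0.07 and Nrg3 at -0.28. With the block (12.9% of all genes) 3 of the 11 were lower as well, Nrg3, Erbb4 and Pdgfb (adjusted p = 0.0158, 0.0198 and 0.0419, limma). Pdgfrb, the PDGF receptor of pericytes and other mesenchymal cells, was lower at 4 h by 1.26 ± 0.17 (SE) on the log2 scale (adjusted p = 0.0137, limma), and at 24 h it was at -0.30 (adjusted p = 0.505). No other gene of this list was called at 4 h, where 1.55% of all genes were called lower. With the block (23% of all genes) Egfr and Pdgfb were lower too.

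Among the lists of cell division genes and of markers of other cells, only the division list had most of its genes called at 24 h with DMF. Of 16 cell division genes, 14 were lower and none higher, where 2.09% of all genes were called lower. With the block 15 were lower (12.9% of all genes in either direction). The median log2 fold change was -1.0, against 0.06 with no call at 4 h, where the block called 5 higher and none lower (23% of all genes). Top2a, which untangles DNA at mitosis, fell by 1.47 ± 0.10 (SE, adjusted p = 0.000511, limma), and Cdk1, Rrm2 and Ccnb1 fell by 1.30, 1.29 and 1.02. The summed level of the 16 genes was 452 to 477 CPM in DMSO and 227 to 265 in DMF at 24 h. Of 8 neural progenitor genes, 3 were lower: Hes5, a Notch target, by 1.13, Eomes by 1.27 and Fabp7 by 0.73 on the log2 scale. With the block 3 were lower and 1 higher (12.9% of all genes). The progenitor sum was 1458 to 1982 in DMSO and 1289 to 1510 in DMF. Of 13 astrocyte genes 1 was lower, Aldh1l1 by 0.65 (adjusted p = 0.0403, limma), and Gfap was at 0.76 (adjusted p = 0.163). With the block, which called 12.9% of all genes at 24 h, 5 astrocyte genes were lower and 1, Gfap, was higher. The astrocyte sum ran from 3784 to 6296 in DMSO and from 3758 to 6867 in DMF.

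None of 15 neuronal genes was called at 24 h (4 lower and 2 higher with the block, against 12.9% of all genes), with a sum of 7040 to 7856 CPM in DMSO and 6167 to 7274 in DMF. At 4 h, where 1.55% of all genes were called lower, Tubb3, a neuronal tubulin, was lower by 0.64 (adjusted p = 0.0250, limma). Microglial genes were near 0 (a sum of 3.30 to 3.94 in DMSO and 4.4 to 6.33 in DMF at 24 h), with 2 of 10 tested and none called. Among them Tmem119 was at 0 in 9 libraries and Cx3cr1 in 11. Of 12 pericyte, fibroblast and endothelial genes 8 were tested at 24 h and none was called. Their sum ran from 51.9 to 77.3 in DMSO and from 56.8 to 76.8 in DMF. Kcnj8, a pericyte gene, was at 0 in 16 libraries, while Pdgfrb, also of this list, had reads in every library (7.21 to 23.5 CPM). The sum of the 9 precursor genes themselves, most of it Olig1 and Bcan, was 1239 to 1532 in DMSO and 1056 to 1366 in DMF at 24 h. Of the genes named from these lists, Matn4, Hes5, Top2a, Cdk1, Rrm2 and Ccnb1 kept their call when any one library was left out, and the others that were called lost it in at least 1 such fit. The part of these other genes in the result for the precursor genes was not tested.

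**Figure D4:**
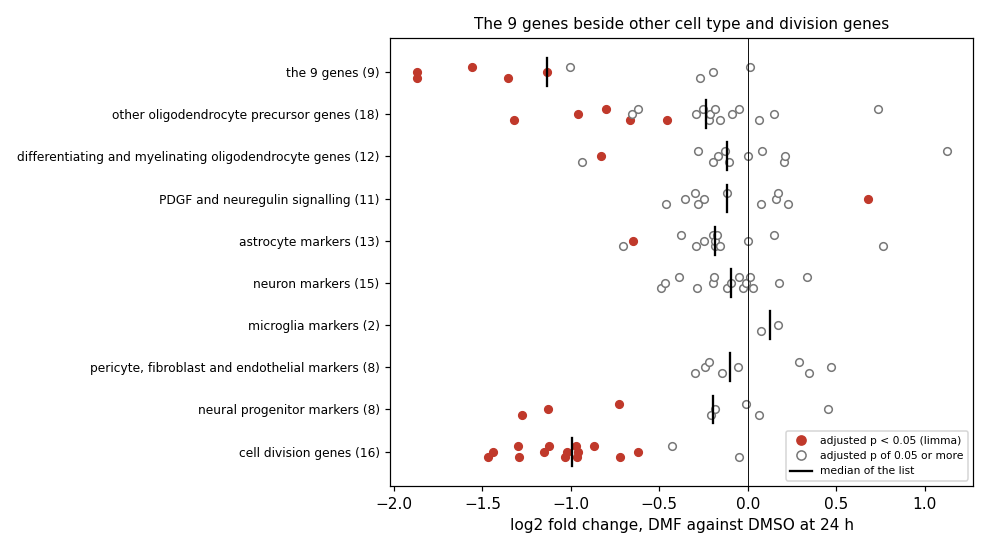
Log2 fold change of DMF against DMSO at 24 h (horizontal axis) for the tested genes of each list (rows, number tested in parentheses), filled where the adjusted p was under 0.05, with a line at the median. The 9 precursor genes have a median of -1.13 and the cell division genes of -1.0; the other lists have medians between -0.24 and 0.12.

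The genes most like the precursor genes over the 6 drug-to-vehicle comparisons were found by the root mean square difference between 18 log2 ratios (3 replicate numbers in each) and the median pattern of the 9 genes, among 11183 genes with a mean of at least 100 reads. DMF and MMF ratios share DMSO libraries, so the 18 are not independent. The nearest was Sapcd2, with a difference of 0.217, followed by Ncaph (0.227), a condensin subunit, and Clspn (0.239), a replication checkpoint gene. Pmel, Pole, Tspan11, Mylk, Gmnn, Kank1 and Mcm7 completed the first 10, with differences from 0.243 to 0.271. A gene with no change at all would be at 0.549 and the median of all genes was 0.567.

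Promoters were read to show the start regions of genes that differed in response. RefSeq windows of 300 bases, from 250 before to 50 after the start, matched 6 of the 9 genes on the assembly GRCr8. Printed here, 5′ to 3′ on the strand of the gene, are Cspg4 and Pdgfra, which fell, and Olig2, which had no call. Capitals mark CCAAT or its reverse complement ATTGG, the box of the factor NF-Y.
Cspg4, chr8:66160692-66160991, plus strand: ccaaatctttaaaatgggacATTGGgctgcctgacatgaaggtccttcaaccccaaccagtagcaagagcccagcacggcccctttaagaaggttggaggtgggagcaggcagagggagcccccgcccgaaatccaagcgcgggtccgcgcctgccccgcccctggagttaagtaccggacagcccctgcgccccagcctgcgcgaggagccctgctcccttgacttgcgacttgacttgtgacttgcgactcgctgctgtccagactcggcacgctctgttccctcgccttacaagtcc
Pdgfra, chr14:33408467-33408766, minus strand: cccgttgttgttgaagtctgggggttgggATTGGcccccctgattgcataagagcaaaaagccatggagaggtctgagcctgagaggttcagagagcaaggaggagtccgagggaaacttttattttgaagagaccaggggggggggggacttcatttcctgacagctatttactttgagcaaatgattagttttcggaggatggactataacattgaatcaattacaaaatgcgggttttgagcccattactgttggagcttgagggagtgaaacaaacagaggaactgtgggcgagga
Olig2, chr11:43961335-43961634, plus strand: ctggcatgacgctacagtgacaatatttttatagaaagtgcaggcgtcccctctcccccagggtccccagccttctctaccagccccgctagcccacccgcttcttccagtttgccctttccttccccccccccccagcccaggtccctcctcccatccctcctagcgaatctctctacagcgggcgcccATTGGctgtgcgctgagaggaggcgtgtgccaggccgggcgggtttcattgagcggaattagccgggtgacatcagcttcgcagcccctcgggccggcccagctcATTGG
The box occurred once in Cspg4 and in Pdgfra and at 2 places in Olig2, and not in Gpr17, Bcan or Nkx2-2. It is held by 37.5% of all 33469 windows, on either strand. The SOX motif ACAAAG and the E-box CAGCTG were found in none of the 6 windows (18.8% and 15.1% of all). The antioxidant response core TGACNNNGC was found in 1, that of Bcan (12.1% of all). The motifs do not overlap in these windows. A match here is a run of letters only, and the windows say nothing about binding.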

How the data were processed

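Poly(A) RNA of 30 libraries was sequenced on a NovaSeq as paired reads. Per the labels and the study's methods, the authors trimmed with Cutadapt 4.4 and Trimmomatic 0.39, aligned with HISAT2 2.2.1 to mRatBN7.2 and counted with HTSeq 2.0.3 on Ensembl genes. The strand setting is not given in the sources used here. The deposited signal values are counts divided by the DESeq2 1.40.2 size factor of each table (6 libraries a table), and dividing by the value of 1 read gave whole reads for 100% of values within 1e-06. The tables also hold the authors' fold changes and p-values, which were not used. Of 19 tables, 8 were used. The 11 others were not used here.

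Values were tested as log2(value + 1), with low genes removed by filterByExpr, by limma 3.58.1 in R 4.3.3 (adjusted p threshold 0.05). Fold changes are on this scale, which understates low genes. Alternatives were edgeR 4.0.16, DESeq2 1.42.0, no filter, TMM, a pseudocount of 0.1, the spread of all 30 libraries, a replicate block and leaving out each library. Same-numbered libraries deviated together (correlations 0.129 to 0.668, all over 0.1). Libraries of different numbers reached 0.195, in DMF minus CBD at 4 h. The correlations overlapped there, in MMF against DMSO at 4 h and for the DMF effect at 24 h minus 4 h. In the other comparisons they did not overlap. In DMF against DMSO, same-numbered libraries had 0.338 to 0.600 at 4 h and 0.274 to 0.431 at 24 h. Libraries of different numbers had at most 0.034 and -0.027 there. The titles' replicate numbers were taken as pairs for the ratios and the block, and the main tests left the pairing out. A blocked value is given where it changes a call of the 9 genes. For the lists, not every call that the block changed is given. The 9 genes and all lists were chosen with earlier results of these data known. From each list, the 4 genes with the smallest p in DMF at 24 h were named, and all genes of the PDGF and neuregulin list. Tests were tried on simulated counts first. Intervals are 95% confidence intervals of the log2 fold change or difference (limma), and they reflect only the spread between these samples.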

Additional observations from a re-analysis of the deposited data

Results flagged for a closer look

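Cspg4 was flagged because the DMF effect was unlike at the 2 times by a test of the difference itself. The effect at 24 h minus that at 4 h was -1.13 on the log2 scale (limma interaction, adjusted p = 0.00578). The DMF to DMSO ratio was -1.13 at 24 h, lower in 3 of 3 pairs, and 0.00 at 4 h. The call was kept in 12 of 12 fits that left out a library, with adjusted p of at most 0.0236.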

How the results depend on the processing

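The number of precursor genes called moved mainly with the replicate block. The block gave 5 of 9 in DMF against DMSO at 4 h (1 without it), 1 in MMF against DMSO at 24 h (0), 2 in CBD against EtOH at 4 h (0), 5 in DMF against MMF at 4 h (0), 4 for the DMF effect at 24 h minus 4 h (1), and 1 and 3 for DMF minus CBD at 4 and 24 h (0 and 0). In DMF against DMSO and against MMF at 24 h it gave 6 in place of 5. It changed no call of the 9 genes beyond those given in the report. DESeq2 called 1 in DMF against MMF at 4 h, 1 in DMF minus CBD at 4 h and 2 at 24 h, and the spread of all 30 libraries gave 1 in DMF against MMF at 4 h. Leaving out a library gave 0 to 1 in DMF against DMSO at 4 h, 4 to 5 at 24 h, 2 to 5 in DMF against MMF at 24 h, and 0 to 3 in DMF minus CBD at 24 h, where 3 came without replicate 3 of CBD. The cause was not tested. No direction of a called gene reversed, and DMF at 24 h stayed the lowest of the 10 groups for 4 genes under every scaling. Over all genes, DESeq2 called 1024, 852, 8, 18, 170, 744 and 829 in the order DMF at 4 and 24 h, MMF at 24 h, CBD at 4 and 24 h, and DMF against MMF at 4 and 24 h (limma 485, 554, 1, 1, 16, 229 and 506), and the block 3274, 1803, 195, 330, 71, 3347 and 1740. For the DMF effect at 24 h minus 4 h, and for DMF minus CBD at 4 and 24 h, DESeq2 called 995, 500 and 243 and the block 1904, 1527 and 369 (limma 594, 146 and 56). The spread of all 30 libraries gave 1536 in DMF and 1403 in DMF against MMF at 4 h, 9 and 425 in CBD at 4 and 24 h, 435 and 221 in DMF minus CBD, and 0 in MMF at 24 h, as did TMM there, against 2 with no filter. Leaving out a library moved the calls over all genes, and so the background shares, by over 1.5 times in every comparison but MMF at 4 h (0 throughout): to 28 to 153 in DMF at 4 h and 142 to 1166 at 24 h, 0 to 14 in MMF at 24 h, 0 to 12 in CBD at 4 h, from 0 to well above the 16 of the full fit in CBD at 24 h, 0 to 63 and 156 to 712 in DMF against MMF at 4 and 24 h, 278 to 648 for the DMF effect at 24 h minus 4 h, and 10 to 150 and 25 to 168 in DMF minus CBD at 4 and 24 h. Depth limits Erbb3 most, at 16 to 101 reads a library.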
